A study of Mus musculus with 5 samples.

Results

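Of 8343 acetyl-histone ChIPseq regions near the start sites of protein-coding genes in memory CD8+ T cells, 894 were called in WT replicates 1 and 2 and in TPdh-/- replicate 3 and were missing in TPdh-/- replicates 1 and 2. These members were selected on the peak calls of all 5 libraries. Peaks that shared at least 1 bp were merged into 18410 regions, and a region was a coding promoter where it lay within 3000 bp of the start site of a protein-coding transcript (GENCODE, build GRCm38). The share of coding promoter regions with this pattern was 10.7%. Because the calls made the selection, the presence or absence of a member peak is a description and was not tested.

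The libraries were made from cultured CD8+ T cells of the memory type (T_M), which form in vitro when activated cells are kept in IL-15. WT cells carried the wildtype genotype in the labels, and the mutant libraries, labelled PDH_Mutant, came from TPdh-/- mice, a cross of B6.129P2-Pdha1tm1ptl/J with B6.Cg-Tg(Cd4-cre)1Cwi/BfluJ mice in which CD4-Cre deletes Pdha1 in T cells. Pdha1 encodes the E1 alpha subunit of the pyruvate dehydrogenase complex (PDC) and lies on the X chromosome. The study used male and female mice of 8 to 12 weeks, but the labels give neither sex nor age for a library, and they do not say whether the libraries of a group came from separate mice. CD4-Cre is active from the thymus onwards and in CD4+ as well as CD8+ T cells, so the deletion preceded the culture. Chromatin was precipitated with 1 antibody against acetylated histones, which the sample labels annotate as acetyl K18 while the study's methods name acetyllysine. Peaks were called by the authors in each library alone, without read numbers in the lists, so the depth behind a call is unknown.

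PDC turns pyruvate into acetyl-CoA in mitochondria and so joins glycolysis to the tricarboxylic acid cycle. Acetyl-CoA is also the donor from which histone acetyltransferases place acetyl groups on histone lysines, and histone deacetylases remove them. Acetylated histones mark the start sites of active genes, many of which lie in CpG islands, stretches of DNA that keep more CpG dinucleotides than the rest of the genome.

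The members were of more than 1 kind of promoter, and their sequences show the range. Each stretch below holds the 120 bases before the start site that the member region covered, 5′ to 3′ on the gene's strand, from the GRCm38.p6 reference, with CpG dinucleotides in capitals. Snw1 (a splicing and transcription co-regulator; chr12:87472275-87472394, minus strand) and Ipo13 (an importin; chr4:117915000-117915119, minus strand) were among the 10 strongest members. Cs (citrate synthase, the first step of the tricarboxylic acid cycle; chr10:128337614-128337733, plus strand) and Dlat (the E2 subunit of PDC; chr9:50659781-50659900, minus strand) are metabolic members. Cd3d (a chain of the T cell receptor complex; chr9:44981666-44981785, plus strand) and Lck (the kinase that starts T cell receptor signalling; chr4:129573642-129573761, minus strand) are T cell members.
Snw1: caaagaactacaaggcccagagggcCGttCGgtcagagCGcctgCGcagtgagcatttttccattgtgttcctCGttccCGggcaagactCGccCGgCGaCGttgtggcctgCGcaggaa
Ipo13: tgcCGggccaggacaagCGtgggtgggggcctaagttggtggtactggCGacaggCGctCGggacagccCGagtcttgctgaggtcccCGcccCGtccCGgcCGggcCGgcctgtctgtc
Cs: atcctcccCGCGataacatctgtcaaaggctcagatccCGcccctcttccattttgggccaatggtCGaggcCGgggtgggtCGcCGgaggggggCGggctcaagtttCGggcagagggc
Dlat: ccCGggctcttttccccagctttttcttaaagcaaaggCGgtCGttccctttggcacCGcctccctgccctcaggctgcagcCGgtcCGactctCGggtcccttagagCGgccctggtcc
Cd3d: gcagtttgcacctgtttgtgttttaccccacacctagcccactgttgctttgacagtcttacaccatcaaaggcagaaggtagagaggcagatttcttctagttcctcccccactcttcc
Lck: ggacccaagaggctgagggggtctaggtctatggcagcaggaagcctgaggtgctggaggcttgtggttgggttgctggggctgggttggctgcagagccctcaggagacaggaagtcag
These stretches held 11 CpG dinucleotides at Snw1, 11 at Ipo13, 9 at Cs and 8 at Dlat, against 0 at Cd3d and 0 at Lck. They are examples and do not stand for their groups. Other T cell members, such as Fyn and Socs2, had start sites rich in CpG, and the range is given below.

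Member start sites were also searched for 13 short motifs on both strands, in windows from 250 bp before to 50 bp after the start site. Those of NRF1, ETS and RUNX factors are given here. The letters GCGCATGC, or GCATGCGC on the other strand, which NRF1, a factor of mitochondrial and housekeeping genes, is known to bind, stood in 64 of 894 member windows (7.16%, 95% Wilson interval 5.65 to 9.04). They stood in 5.36% of the windows of coding promoter regions of any other pattern (4.87 to 5.89). The share was 4.89% in regions called in all 5 lists and 7.43% in those called in WT 1 and TPdh-/- 3 alone. It was 5.56% in both WT lists alone, 4.26% in all but TPdh-/- 1 and 6.40% in all but TPdh-/- 2. Over all coding start sites it was 3.24%. Over whole merged regions the order turned, with the letters in 9.06% of members and 9.36% of regions in all 5 lists. Examples before the start site are shown with the motif in capitals for Atp5g2 (a subunit of ATP synthase; chr15:102671333-102671364, minus strand), Sirt5 (a mitochondrial lysine deacylase; chr13:43365592-43365623, plus strand), Hdac1 (a histone deacetylase; chr4:129542771-129542802, minus strand) and Pgam1 (phosphoglycerate mutase of glycolysis; chr19:41911795-41911826, plus strand).
Atp5g2: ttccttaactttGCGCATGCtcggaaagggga
Sirt5: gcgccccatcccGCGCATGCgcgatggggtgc
Hdac1: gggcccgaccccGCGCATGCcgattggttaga
Pgam1: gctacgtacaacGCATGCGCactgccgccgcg
In these 4 promoters the motif began 225, 24, 77 and 116 bp before the start site. The 4 were chosen from the matches, which also lay at genes such as Il2rb, Ly9, Egf and Zfp248. The letters CCGGAAGT, or ACTTCCGG, of the ETS factors stood in 10.6% of member windows, 12.3% of the windows of regions in all 5 lists and 4.68% of all coding start sites. The letters TGTGGTTT, or AAACCACA, of RUNX factors, which act in T cells, stood in 1.68% of member windows and 1.51% of all coding start sites. A match is a description of the reference sequence and does not show that a factor was bound.

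Member start sites were rich in CpG as a group, to about the level of other called promoter regions. The CpG ratio is the number of CpG dinucleotides over the number that the base composition alone would give. Its median was 0.764 over the members, 0.786 over coding promoter regions of any other pattern and 0.821 over the 1924 regions called in all 5 lists. Over all coding start sites the median was 0.529. The ratio was at least 0.6 in 646 of 894 members (72.3%, 95% Wilson interval 69.2 to 75.1). That share was 73.2% in regions of any other pattern (72.1 to 74.1) and 77.2% in the regions in all 5 lists (75.3 to 79.1). The 248 members with a lower ratio had weaker peaks. Their median fold enrichment was 2.48 in WT 1, 2.51 in WT 2 and 2.46 in TPdh-/- 3, against 2.93, 2.80 and 2.74 for the CpG-rich members. The CpG-poor regions of all 5 lists ranked lower too, with a median percentile of −log10 q within the WT 1 list of 83.6, against 90.0 for the CpG-rich ones. A start site lay inside 72.6% of the CpG-poor and 89.8% of the CpG-rich members.

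The number of regions with this pattern was set against the other patterns of 3 lists. The lists held 15962 peaks in WT 1, 8859 in WT 2, and 4920, 5419 and 9418 in TPdh-/- 1, 2 and 3, so the lists that lack a member peak were also the 2 shortest. WT 1, WT 2 and TPdh-/- 3 shared 894 coding promoter regions that TPdh-/- 1 and 2 lacked. The other 9 ways of being called in exactly 3 lists held 0 to 176 regions. With each list reduced to its 4920 strongest peaks by −log10 q, the length of the shortest list, 247 regions had the member pattern and the other 9 patterns held 31 to 96 regions. Of those 247 regions, 245 were at members of the full lists. The cut left the TPdh-/- 1 list whole and took TPdh-/- 2 from 5419 to 4920 peaks, so this overlap follows largely from the rule. Regions called in all 3 TPdh-/- lists and in no WT list numbered 0 in the full lists and 68 in the equal lists. The likeness of TPdh-/- 3 to the WT lists at members was set by the selection and was not tested. With 1 library left out of the rule the count was 905 without WT 1, 1660 without WT 2, and 1394, 1457 and 1343 without TPdh-/- 1, 2 and 3. A rule on fewer libraries asks for less, and regions of a neighbouring pattern then join, so the higher counts follow from the rule.

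**Figure D1:**
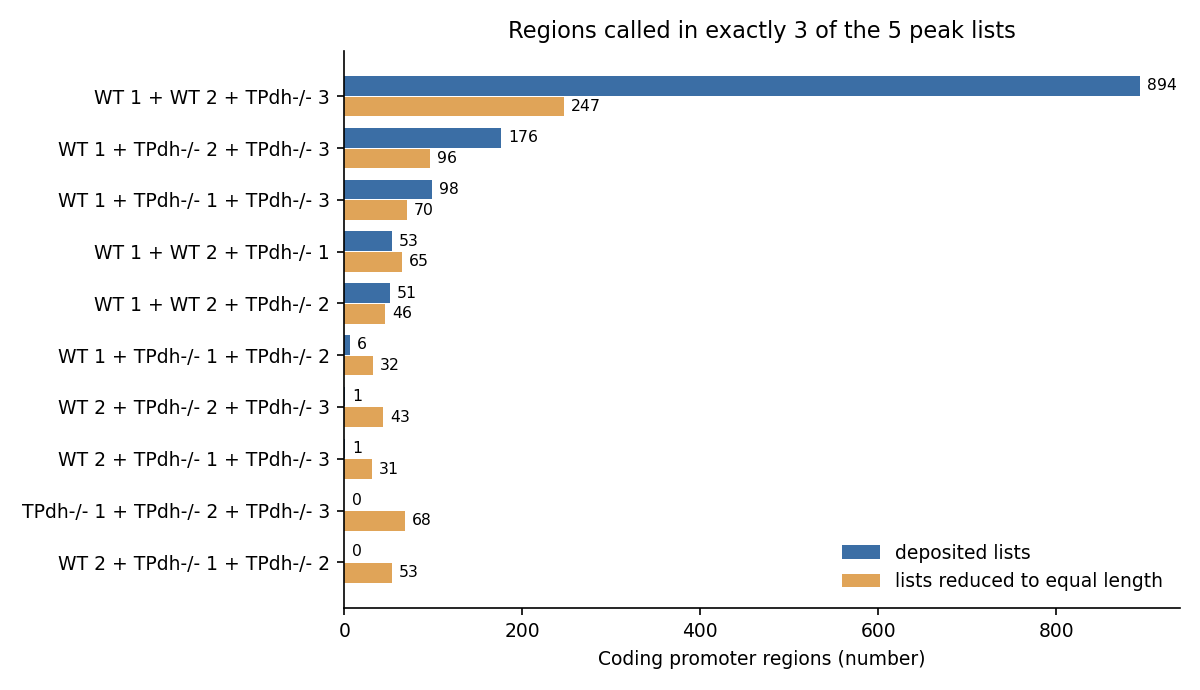
Number of coding promoter regions (x axis) for each of the 10 patterns of being called in exactly 3 of 5 peak lists (y axis), in the deposited lists (blue) and with every list reduced to 4920 peaks (orange). The member pattern at the top held 894 regions in the deposited lists and 247 in the equal lists, and the next pattern held 176 and 96.

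Among the 3881 coding promoter regions called in WT 1, WT 2 and TPdh-/- 3 together, 894 (23.0%) were missing in both TPdh-/- 1 and 2, 563 in TPdh-/- 1 only, 500 in TPdh-/- 2 only, and 1924 in neither. The strength of a region in the 3 libraries that had it was taken as the mean percentile of −log10 q, where the percentile is the share of a list's own peaks at or below that peak. The 3881 regions were ordered by this value and divided into 10 classes of 388 or 389. In the weakest class 229 of 388 (59.0%) were members. In class 5 the members were 23.5%, and in the strongest class 9 of 389 (2.31%). The share called in all 5 lists ran the other way, from 10.6% in the weakest class to 91.5% in the strongest. Members lay in each of the 10 classes, and 229 and 162 of them lay in the weakest 2.

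**Figure D2:**
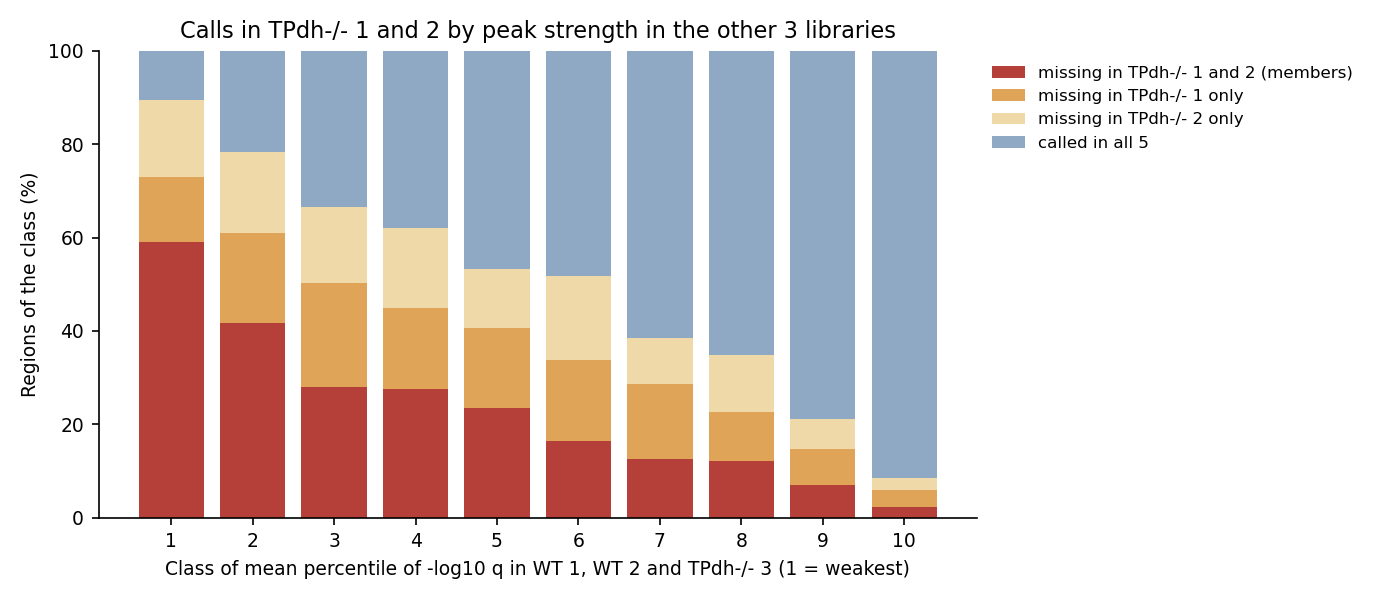
Share of regions (y axis, %) that were missing in both, in 1 or in neither of TPdh-/- 1 and 2, for 10 classes of 3881 coding promoter regions ordered by mean percentile of −log10 q in WT 1, WT 2 and TPdh-/- 3 (x axis, 1 is the weakest). The member share was 59.0% in class 1 and 2.31% in class 10.

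Within the lists that held them, member peaks were of middle rank. The median percentile was 66.1 in WT 1 (quartiles 49.2 and 81.2), 45.5 in WT 2 (26.3 and 65.4) and 47.1 in TPdh-/- 3 (29.0 and 69.8). For regions called in all 5 lists it was 88.7, 78.1 and 81.3 in the same lists, and 67.3 and 70.3 in TPdh-/- 1 and 2. The rank in TPdh-/- 3 was above the rank in WT 2 for 491 members (54.9%) and above the rank in WT 1 for 200 (22.4%). Fold enrichment, the authors' ratio of a peak's signal over the background that the caller estimated, differed less between the classes. Its median over the members was 2.85 in WT 1, 2.73 in WT 2 and 2.67 in TPdh-/- 3, and over regions in all 5 lists 2.98, 2.93 and 2.92. Over all peaks of a list the median fold was 2.65 in TPdh-/- 1 and 2.58 in TPdh-/- 2. It was 2.40, 2.54 and 2.48 in WT 1, WT 2 and TPdh-/- 3. Of all peaks, 57.1% in TPdh-/- 1 and 63.0% in TPdh-/- 2 had a fold under the members' median in WT 2. The depth behind these folds is unknown, and the reason for the missing member peaks was not tested.

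**Figure D3:**
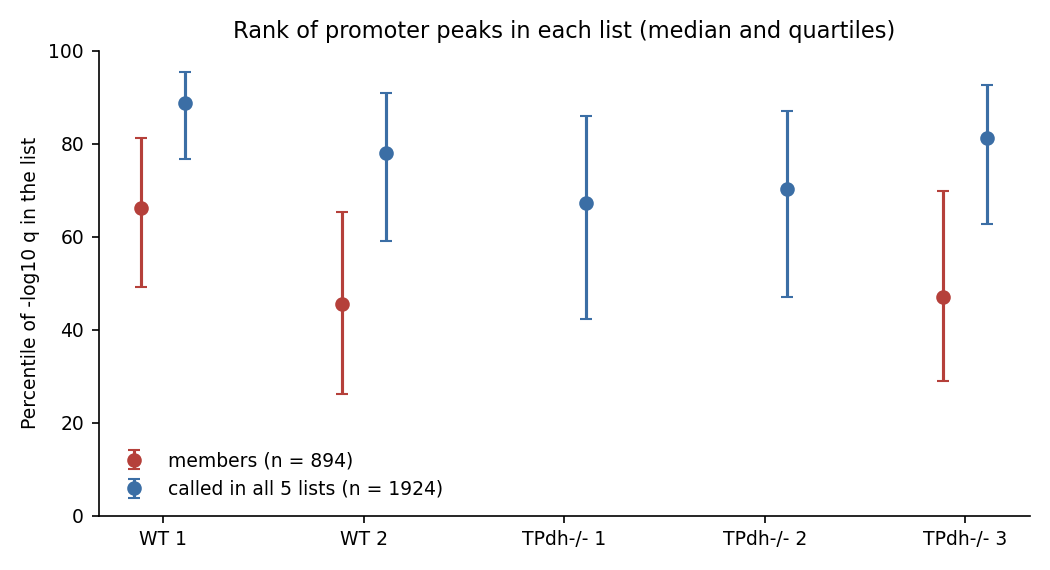
Percentile of −log10 q within each list (y axis) for member peaks (red) and for regions called in all 5 lists (blue), as the median with quartiles over regions. Members have no peak in TPdh-/- 1 and 2, and their medians of 66.1, 45.5 and 47.1 lie under those of regions in all 5 lists, 88.7, 78.1 and 81.3.

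A stricter threshold kept part of the members. The −log10 q was at least 2 in all 3 lists for 624 members, at least 3 for 316 and at least 5 for 93. All 3 peaks of 245 members (27.4%) were among the 4920 strongest of their lists, and for 267 members (29.9%) none of the 3 was. The weakest members were Mgst2 (microsomal glutathione S-transferase), Dguok (mitochondrial deoxyguanosine kinase) and Mucl2. At Mgst2 the −log10 q was 1.67 in WT 1, 1.24 in WT 2 and 1.12 in TPdh-/- 3, near the least value of the lists, which lay between 1.00 and 1.03.

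The 10 strongest members were Nudcd3, Dennd6b, Snw1, Gsto2, Shc1, Snx20, Sco2, Ipo13, Polr1a and Zscan25. The lowest percentile of any of their peaks was 85.8, and their merged regions were between 864 and 1233 bp wide. At Nudcd3 (a dynein co-chaperone; chr11:6199690-6200830) the −log10 q was 14.1 in WT 1, 12.1 in WT 2 and 11.4 in TPdh-/- 3, with folds of 4.06, 4.21 and 3.98. At the region shared by Sco2, a copper chaperone for cytochrome c oxidase, and Tymp (chr15:89373372-89374235), the −log10 q was 12.9, 12.1 and 8.15. The region of Shc1, an adaptor of receptor signalling, also held Cks1b, and that of Polr1a, the large subunit of RNA polymerase I, also held Ptcd3. At Snx20 the CpG ratio was 0.40, the lowest of the 10, and the folds were 3.19, 3.54 and 3.59.

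TPdh-/- 3 did not follow the WT lists at each member. The members in which its percentile exceeded the higher WT percentile by most were Kctd11, Dgat1 and Samd9l. At Kctd11 the −log10 q was 3.09 in WT 1, 1.68 in WT 2 and 5.45 in TPdh-/- 3, and at Dgat1, an enzyme of triglyceride synthesis, it was 2.37, 2.23 and 4.36. The members in which its percentile lay under the lower WT percentile by most were Ciz1, 3110040N11Rik and Tcea2. At Ciz1, a regulator of DNA replication, the −log10 q was 7.01 in WT 1, 4.70 in WT 2 and 1.31 in TPdh-/- 3, and at Tcea2, an elongation factor, 7.46, 4.36 and 1.26. The latter are regions where the mutant library that kept the call had it just over the threshold. Across the 894 members, Spearman's rho of the percentiles was 0.58 between WT 1 and WT 2, 0.66 between WT 1 and TPdh-/- 3 and 0.55 between WT 2 and TPdh-/- 3. These are descriptions across regions that share libraries, and they hold no test.

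The members lay at 1050 of the 9166 coding genes that had any region near a start site (11.5%). The rest of the gene counts are set beside that share, and none of them was tested. Of the 894 members, 736 had 1 coding gene within reach, 154 had 2 and 4 had at least 3. At head-to-head start sites of neighbouring genes lay 100 members (11.2%). That is near the 10.3% of coding promoter regions of any other pattern and the 13.1% of regions of all 5 lists. Another region with a peak of TPdh-/- 1 or 2 lay at 44 of the 1050 genes, and 19 of them had such peaks from both libraries.

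Genes of pyruvate oxidation were among the members. Of 73 respiratory chain genes with a promoter region, 13 were at members (17.8%) and 8 at regions of all 5 lists. They were the complex I genes Ndufs4, Ndufb7, Ndufb3, Ndufb2, Ndufs6, Ndufs5 and Ndufa10, the complex III genes Uqcrq and Uqcrc2, the complex IV gene Cox5a, and the ATP synthase genes Atp5j2, Atp5g2 and Atp5g1. At Ndufs4 (chr13:114387220-114388321) the fold was 4.01 in WT 1, 3.42 in WT 2 and 3.08 in TPdh-/- 3, and the −log10 q was 14.0, 6.41 and 5.02. At Atp5j2 the fold was 4.03, 3.70 and 3.16, and at Ndufb7 4.07, 3.30 and 3.47. At these 3 genes the lowest percentile of any peak was 70.4. At Ndufa10 the folds were 2.39, 2.44 and 2.26, the lowest of the group in WT 1 and TPdh-/- 3, and in WT 2 the lowest was 2.32 at Cox5a. The region of Ndufs6 was shared with Mrpl36, a mitochondrial ribosome gene.

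Of 18 genes with a region in the tricarboxylic acid cycle list, 5 were at members (27.8%) and 6 at regions of all 5 lists (33.3%). The list also holds enzymes outside the cycle, among them Mdh1, Aco1, Me2, Idh1 and Pck2. Of these, Mdh1 was at a member, and Aco1 and Me2 were at regions of all 5 lists. All 3 subunit genes of the NAD-dependent isocitrate dehydrogenase, Idh3a, Idh3b and Idh3g, were members. At Idh3b the −log10 q was 8.52 in WT 1, 6.44 in WT 2 and 7.25 in TPdh-/- 3, at Idh3a 6.55, 3.53 and 3.06, and at Idh3g, on the X chromosome in a region shared with Ssr4, 3.85, 2.43 and 3.16. Mdh1 (cytosolic malate dehydrogenase) and Cs were weaker in 1 list or more. At Mdh1 the −log10 q was 3.42, 3.89 and 1.32, and at Cs, whose upstream bases are given above, 4.47, 1.48 and 2.24.

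Of 14 genes of PDC and of pyruvate entry with a region, Dlat alone was at a member (7.14%). The −log10 q at Dlat was 5.70 in WT 1, 5.13 in WT 2 and 4.30 in TPdh-/- 3, and the folds were 3.12, 3.29 and 3.01, so that TPdh-/- 3 lay under both WT lists. The deleted gene Pdha1 was not a member, since its promoter was called in WT 1 alone, and a peak call does not measure the deletion. Of 16 genes that supply acetyl-CoA by other routes, 0 were at members and 4 were at regions of all 5 lists.

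Of 20 glycolysis genes with a region, 6 were at members (30.0%) and 5 at regions of all 5 lists. At Aldoa (aldolase A) the −log10 q was 5.59 in WT 1, 7.49 in WT 2 and 7.83 in TPdh-/- 3, and at Pfkl (the liver subunit of phosphofructokinase) 7.96, 3.10 and 4.46. At Slc2a3, which encodes the glucose transporter GLUT3, it was 5.40, 3.39 and 4.73. The other 3 genes were weaker in 1 list or more. In the same order, Pfkp had 4.31, 1.98 and 3.49, and Pgam1 had 2.92, 2.67 and 1.42. Pfkm had 2.44, 1.17 and 1.57, in a region 1547 bp upstream of the start site. With a least −log10 q of 2 the number of glycolysis genes at members was 4. Slc2a3 and Pfkm also had a region called in all 5 lists at another start site, so these genes held both patterns, and Pfkp had another region that TPdh-/- 1 shared.

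**Figure D4:**
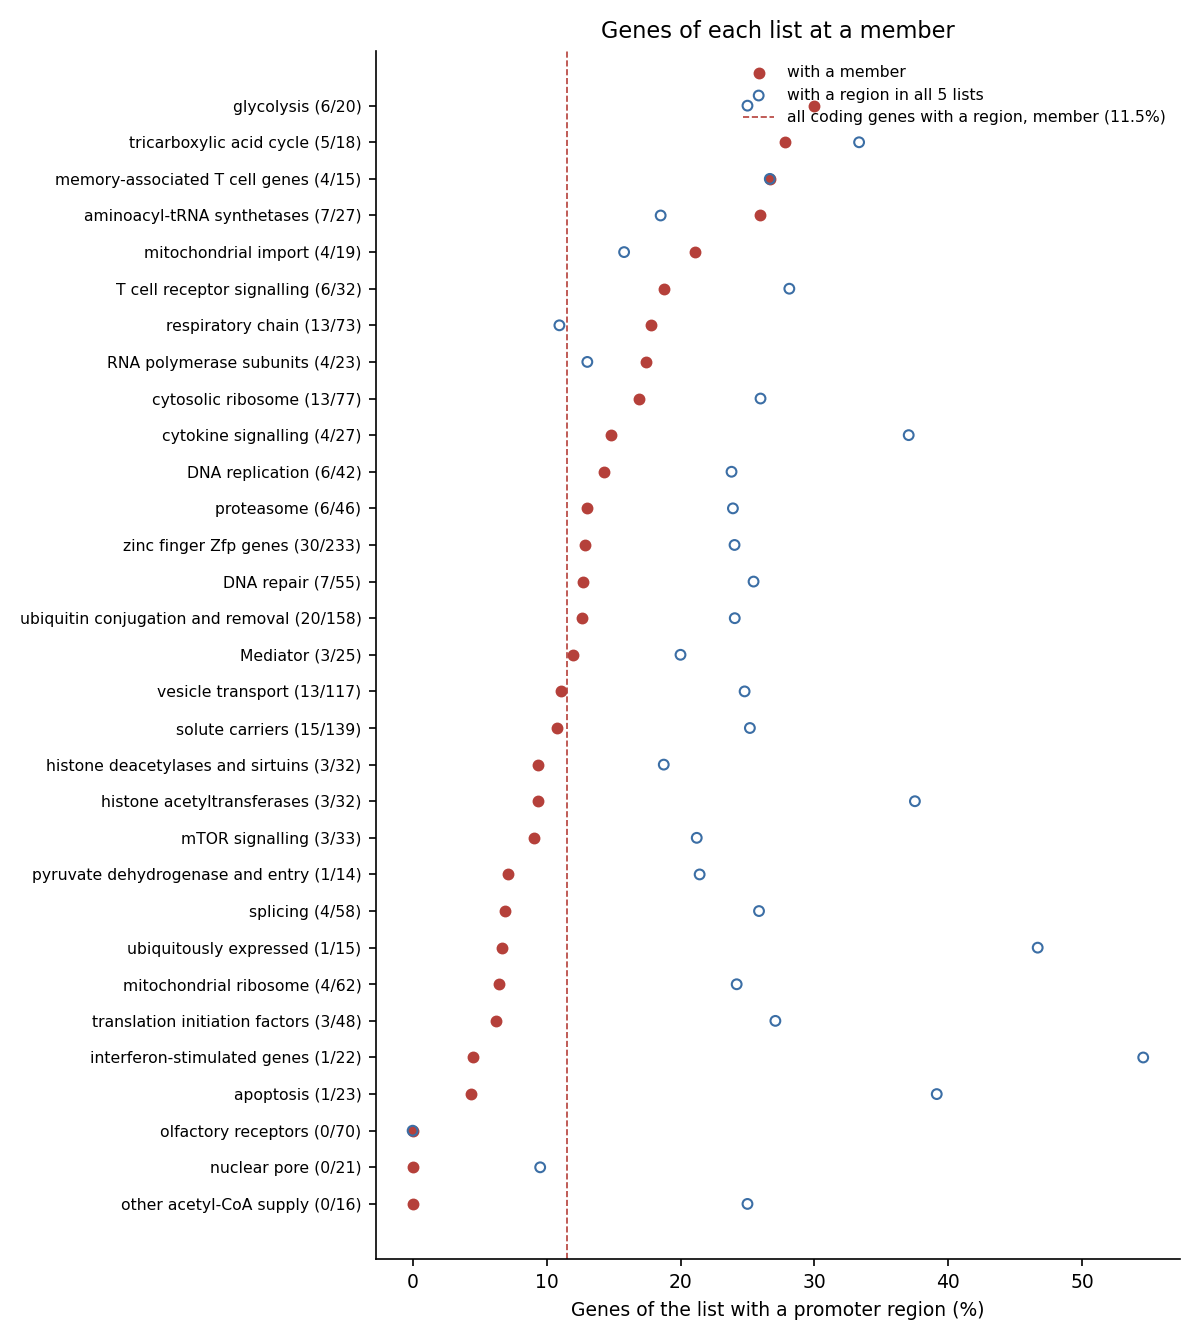
Share of the genes of each list (x axis, %; lists with at least 10 genes that have a promoter region, counts in brackets) that lay at a member (red) or at a region of all 5 lists (open blue). The dashed line is the share of all coding genes with a region that lay at a member, 11.5%, and glycolysis is highest at 30.0%.

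The machinery of protein synthesis gave shares on both sides of that background. Of 27 aminoacyl-tRNA synthetase genes 7 were at members (25.9%), of 77 cytosolic ribosome genes 13 (16.9%), and of 62 mitochondrial ribosome genes 4 (6.45%). At Nars2 (the mitochondrial asparaginyl-tRNA synthetase) the −log10 q was 8.05 in WT 1, 5.87 in WT 2 and 4.26 in TPdh-/- 3. At Rps15, a small ribosomal subunit gene, it was 15.6, 5.36 and 5.31, and at Rps12 it was 4.07, 1.25 and 3.07. Members therefore included ribosomal promoters that were strong in all 3 libraries and others that WT 2 held just over the threshold. Of 46 proteasome genes 6 were at members (13.0%), led by Psmd7 with 7.83, 4.81 and 7.59. Of 58 splicing genes 4 were (6.90%), led by Srsf7 with 10.3, 4.74 and 3.98. Of 19 mitochondrial import genes 4 were (21.1%), and Tomm20, a receptor of the outer membrane, reached 12.4, 5.37 and 10.9. The 21 nuclear pore genes with a region had 0 at members and 2 at regions of all 5 lists.

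The broad lists lay near the background of 11.5%. Members held 30 of 233 zinc finger genes of the Zfp series (12.9%), 20 of 158 genes of ubiquitin conjugation and removal (12.7%), 15 of 139 solute carriers (10.8%) and 13 of 117 vesicle transport genes (11.1%). They also held 7 of 55 DNA repair genes (12.7%), 6 of 42 DNA replication genes (14.3%) and 4 of 23 RNA polymerase subunit genes (17.4%). Lower shares were found for 3 of 48 translation initiation factors (6.25%) and 1 of 23 apoptosis genes (4.35%), where the member was Bcl2l2, an inhibitor of apoptosis, with −log10 q of 8.63 in WT 1, 2.99 in WT 2 and 4.98 in TPdh-/- 3. Of 33 mTOR signalling genes 3 were at members, namely the inhibitor Tsc1, the stress sensor Sesn1 and the GTPase Rragd. The 70 olfactory receptor genes with a region, which are not used in T cells, had 0 at members and 0 at regions of all 5 lists.

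The lists of histone acetyltransferases and of deacetylases and sirtuins hold subunits of their complexes as well as enzymes. In the acetyltransferase list 3 of 32 genes (9.38%) were at members, and in the deacetylase and sirtuin list 3 of 32 (9.38%). With a least −log10 q of 2 the number of acetyltransferase genes was 6. Of the acetyltransferase genes, which include subunits of their complexes, 12 (37.5%) had a region in all 5 lists. At Kat7 (the catalytic subunit of the HBO1 complex; chr11:95309705-95311089) the −log10 q was 10.1 in WT 1, 4.61 in WT 2 and 4.22 in TPdh-/- 3. Supt20 of the SAGA complex had folds of 3.43, 2.63 and 2.90. Ing1, a reader subunit of deacetylase complexes that stood in the acetyltransferase list, had a −log10 q of 3.14, 3.35 and 2.51. At Sirt5, the mitochondrial deacylase, it was 12.3, 2.92 and 8.09, and at Hdac1, with its NRF1 letters, 3.18, 2.92 and 2.72. Gatad2a of the NuRD complex was the last of these, and it had another region that TPdh-/- 1 shared.

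T cell genes among the members had peaks of another shape. Of 15 memory-associated genes with a region, 4 were at members (26.7%) and 4 at regions of all 5 lists. Among them were Il7r and Il2rb, receptor chains for IL-7 and for IL-2 and IL-15, and Klf2, a factor of T cell quiescence and trafficking. At Il2rb the −log10 q was 2.97 in WT 1, 2.28 in WT 2 and 3.22 in TPdh-/- 3. At Klf2 the region lay 2112 bp from the start site and had 2.56, 2.36 and 1.75. At Il7r the region lay 2975 bp from the start site, the member nearest to the 3000 bp limit, with 2.99, 2.56 and 2.46. Plaur was next inside at 2948 bp, while regions of the same pattern at Kcnip2 (3019 bp) and Ccl1 (3031 bp) lay just outside. Of 8 effector-associated genes with a region, Fasl, the ligand of a death receptor, was the only member (12.5%), with 6.83, 1.42 and 1.76, and with a least −log10 q of 2 the count was 0.

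Of 32 T cell receptor signalling genes with a region, 6 were at members (18.8%) and 9 at regions of all 5 lists (28.1%). Cd3d and Cd3g, neighbouring genes, share a region (chr9:44980735-44983027), in which the −log10 q was 2.65 in WT 1, 2.07 in WT 2 and 1.96 in TPdh-/- 3, and the folds were 1.57, 1.71 and 1.66. Another region, within Cd3d, was called in TPdh-/- 2 alone, with a −log10 q of 1.19. The promoter of the third CD3 gene, Cd3e, was called in all lists but TPdh-/- 1. Fyn, a kinase related to Lck, had 3.48, 3.59 and 3.01, and Nfatc2, a calcium-regulated factor, had 3.17, 2.31 and 1.56. Of 27 cytokine signalling genes 4 were at members (14.8%), namely Il2rb, Il7r, Socs2 and Jak2. Of 22 interferon-stimulated genes with a region, Ifi35 alone was (4.55%), and 12 (54.5%) had a region in all 5 lists.

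Lck has start sites far apart, and their regions had different patterns. The member covered the upstream start site (chr4:129572371-129574488) and had a −log10 q of 3.70 in WT 1, 2.43 in WT 2 and 2.46 in TPdh-/- 3. The region at the downstream start site (chr4:129557563-129559365) was called in WT 1 with 3.53, in TPdh-/- 1 with 2.79, in TPdh-/- 2 with 1.43 and in TPdh-/- 3 with 1.37, and not in WT 2. At the same gene, then, the libraries that lacked the upstream peak held the downstream one.

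The 12 member regions of the memory, effector, T cell receptor and cytokine lists were wide and low. The 19 of the respiratory chain, tricarboxylic acid cycle and PDC lists were narrower and higher, and lay nearer to the medians of all members. Over all 894 members the median width was 1275 bp, the median fold in WT 1 was 2.85 and the median CpG ratio was 0.764. The T cell regions had a median merged width of 2086.5 bp (846 to 2793) and a median fold in WT 1 of 1.96 (1.57 to 2.51). Their median CpG ratio was 0.348, with a range of 0.0774 at Cd3d and Cd3g to 0.899 at Klf2. Here and for the other groups this ratio is that of the window at the nearest start site. The Klf2 region lay 2112 bp from that start site. The pyruvate oxidation regions had a median width of 1200 bp (835 to 3401), a median fold of 3.12 (2.39 to 4.07) and a median CpG ratio of 0.715 (0.510 to 1.12). The folds of the groups in WT 1 overlapped only between Socs2, the highest T cell region at 2.51, and Ndufa10, the lowest metabolic one at 2.39. In TPdh-/- 3 the median folds were 1.96 and 2.85. The same lists differed among regions called in all 5 lists too, with median folds in WT 1 of 2.32 over 25 T cell regions and 3.28 over 17 metabolic ones, so the contrast was not a property of the members alone.

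**Figure D5:**
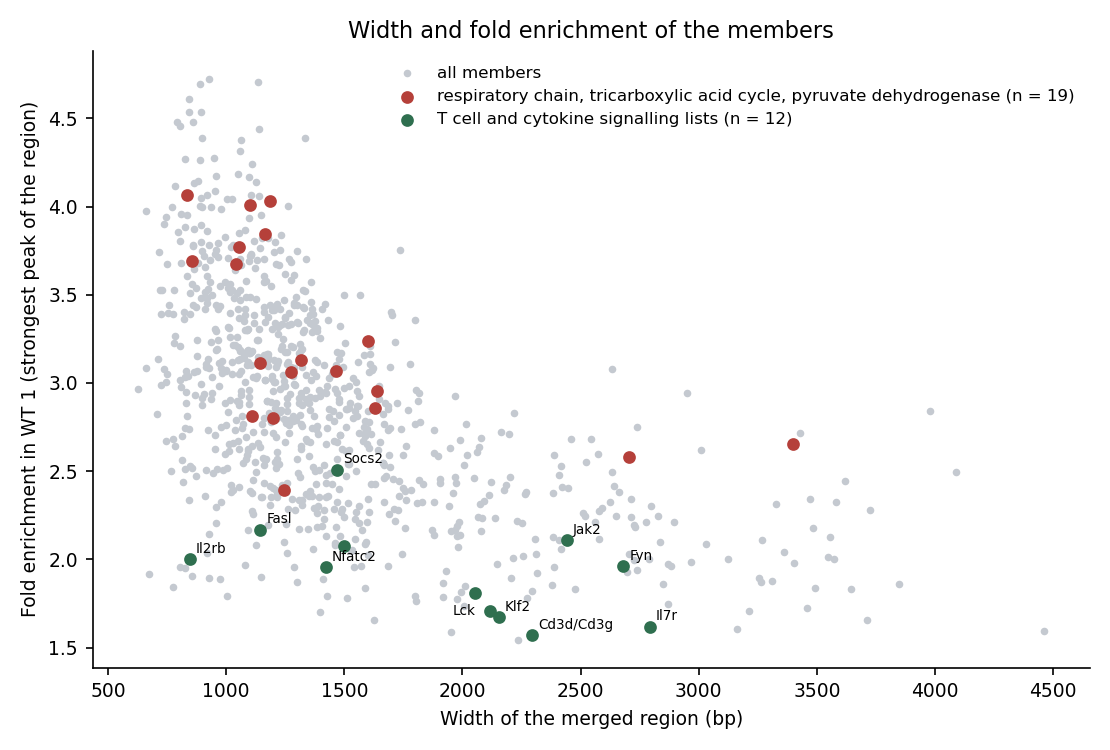
Width of the merged region in bp (x axis) against fold enrichment in WT 1 (y axis) for each of 894 members (grey), with the 19 regions of the respiratory chain, tricarboxylic acid cycle and PDC lists in red and the 12 of the T cell and cytokine lists in green, most of them named. The green points lie between folds of 1.57 and 2.51 and the red ones between 2.39 and 4.07.

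Over all members, width and strength ran in opposite directions. The 223 narrowest regions (627 to 1057 bp) had median folds of 3.26 in WT 1, 2.97 in WT 2 and 3.01 in TPdh-/- 3, and the 224 widest (1601 to 4463 bp) had 2.33, 2.41 and 2.37. The widest member was at Ripor2, a regulator of RhoA in lymphocytes, with 4463 bp and folds of 1.59, 1.81 and 1.76. Spearman's rho between width and mean percentile was -0.47 across the members. The caller gave the width, the fold and the −log10 q of a peak from the same signal, so these are not independent measures. Their relation was not tested. Merged width is set by all peaks that were joined, so that regions with a peak of more libraries can be wider. The median merged width was 1275 bp over members, 1546 bp over regions of all 5 lists and 1093.5 bp over those of both WT lists alone.

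Most members sat on a start site. The merged region covered a coding start site in 760 members (85.0%), lay upstream of it in 52, within the gene in 78 and beyond the gene in 4. A start site was covered in 91.7% of regions of all 5 lists and in 75.6% of those called in both WT lists alone. On the X chromosome lay 22 members (2.46%), against 2.01% of coding promoter regions of any other pattern. The X share was 0.728% in regions of all 5 lists, 4.22% in both WT lists alone and 1.96% in WT 1 and TPdh-/- 3 alone. Among all coding promoter regions of each list it was 2.07% in WT 1, 1.61% in WT 2, and 1.01%, 0.771% and 1.40% in TPdh-/- 1, 2 and 3. On the Y chromosome, Eif2s3y and Ddx3y were members. Of the 4 Y promoters with any peak, WT 1 had 4, WT 2 had 3, TPdh-/- 1 had 0, TPdh-/- 2 had 1 and TPdh-/- 3 had 3. The sex of the mice behind each library is not given in the sources used here, and its part in the calls of these members was not tested. Without the X and Y chromosomes, 870 members remained.

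A measure that the selection did not use is the presence of a further peak beside a member. Another peak of the same library lay within 10000 bp outside the merged region for 24.9% of members in WT 1, 13.2% in WT 2, 7.94% in TPdh-/- 1, 7.16% in TPdh-/- 2 and 14.8% in TPdh-/- 3. TPdh-/- 1 and 2 had the lowest shares, and TPdh-/- 3 lay above WT 2, so that the groups overlapped. The mean share was 19.1 ± 8.30% in WT (SD, n = 2) and 9.96 ± 4.18% in TPdh-/- (SD, n = 3), a difference of 9.12 percentage points (exact permutation test, two-sided, p = 0.4, where 0.2 is the smallest value that 5 libraries allow). For regions of all 5 lists the shares were 22.9, 12.7, 7.54, 8.26 and 14.4% in the same order, with a difference of 7.74 percentage points (exact permutation test, two-sided, p = 0.4). Without WT 1 the difference at members was 3.24 percentage points, and without WT 2 it was 15.0. With lists of equal length the difference at members was 1.34 percentage points (exact permutation test, two-sided, p = 0.4). The number of further peaks therefore moved with the length of the lists at members and at regions of all 5 lists, and the parts of list length and genotype in it cannot be told apart here.

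The cell type was checked on fixed markers. Of 13 annotated CD8 T cell markers, 11 had a promoter region, and 3 of these, Cd3d, Cd3g and Lck, were members. A marker counts as having a region where any list called it. Cd8b1, a defining marker, and Zap70 had a region called in all 5 lists. Cd8a, Thy1 and Gata3 were called in WT 1 alone, and Tcf7 in WT 1 and TPdh-/- 3 alone. Cd2 and Bcl11b had no region. Of 8 B cell markers 1 had a region, of 14 markers of other tissues 1, and of 9 myeloid markers 0, and 0 of these were at members. Of 7 erythroid markers 2 had a region, and Klf1, an erythroid factor, was a member with −log10 q of 8.95 in WT 1, 2.44 in WT 2 and 4.50 in TPdh-/- 3. The Klf1 region lay 574 bp from its start site.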

How the data were processed

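ChIPseq of acetylated histones was analysed in 5 libraries of T_M cells, 2 WT and 3 TPdh-/-. Reads were mapped by the authors with BWA-mem to build GRCm38/mm10, multiply mapped and blacklisted reads were dropped, and MACS2 called broad peaks library by library. The submitters' processing notes list FastQC 0.11.9, BWA 0.7.17, SAMtools 1.15.1 and MACS2 2.2.6. Each deposited list gives per peak a fold enrichment, a ratio on a linear scale, and the authors' −log10 p and −log10 q. A peak caller's threshold turns a weaker signal or a shallower library alike into a missing peak. No deposited list holds read counts, and depth could not be taken into account.

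Peaks were merged at 1 bp of overlap, checked against bedtools 2.31.1, and placed within 3000 bp of start sites of 21829 protein-coding genes (GENCODE M21). Sequences came from the RefSeq GRCm38.p6 genome. A region's value in a list is that of its peak with the highest −log10 q. The code was tested on simulated lists. Python 3.11.15, pandas 2.3.3 and scipy 1.17.1 were used. Intervals are 95% Wilson intervals and cover counting error over regions only. The flanking share was compared by an exact permutation test over the 10 ways of choosing 2 of 5 libraries. Where the labels do not say that libraries came from separate mice, a p measures the spread between these libraries, which may be technical.

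The members and the 38 gene lists were chosen with earlier results of these data known. The genes named are the 10 strongest and 3 weakest members, up to 3 strongest in each list, 3 members each with TPdh-/- 3 most above or below both WT lists, the 2 nearest inside and outside 3000 bp, and the PDC genes. A member is named by its nearest start site. The further genes named, such as Il2rb, Cs, Mdh1, Ripor2, Snx20 and the CD3 genes, were chosen after their values were seen, to account for a list or an extreme. Some genes that the rule selects are not reported here. Alternatives were a least −log10 q of 2 or of 5, equal list lengths, 1000 bp, midpoints, a margin of 1000 bp, 50% overlap, autosomes, leaving out each library, a flank of 50000 bp, the replicate number as a block, percentiles of fold, and other sequence windows. Start sites of all transcripts of coding genes were added after seeing the data.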

Additional observations from a re-analysis of the deposited data

How the results depend on the processing

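The count of 894 members was 508 with a −log10 q of at least 5, of which 93 were at members, and 247 with lists of equal length, of which 245 were. It was 912 with a −log10 q of at least 2, of which 624 were at members, since regions whose peak in TPdh-/- 1 or 2 was weak then joined. It was 848 within 1000 bp, 877 by midpoints, 860 with an overlap of 50% of the shorter peak, 870 on autosomes and 894 with a margin of 1000 bp, and 958 with start sites of all transcripts of coding genes, an alternative chosen after seeing the data. Leaving out 1 library and its condition gave 905 to 1660 regions: 1660 without WT 2, 1394 without TPdh-/- 1, 1457 without TPdh-/- 2, 1343 without TPdh-/- 3, and 905 without WT 1. These rises follow from the relaxed rule, since regions of a neighbouring pattern join. The median percentile of member peaks became 64.0 in WT 2 and 63.9 in TPdh-/- 3 by fold enrichment (74.4 in WT 1), and 52.0, 33.5 and 33.8 in WT 1, WT 2 and TPdh-/- 3 among coding promoter regions of the list alone. Over whole merged regions, 61.6% of members had a CpG ratio of at least 0.6 (70.5% in all 5 lists) and 9.06% held the NRF1 letters (9.36% in all 5 lists), so members did not exceed the regions of all 5 lists in the NRF1 share there. The listed genes at members numbered 188, with 178 within 1000 bp and 190 at a least −log10 q of 2. Of the single lists, 8 counts moved by over 1.5 times. Within 1000 bp, memory-associated genes went from 4 to 2 and ubiquitously expressed genes from 1 to 0. At a least −log10 q of 2, genes of the tricarboxylic acid cycle list went from 5 to 3, and of ubiquitin conjugation and removal from 20 to 12. Those of histone acetyltransferases went from 3 to 6, of apoptosis from 1 to 3, of the effector list from 1 to 0 and of other acetyl-CoA supply from 0 to 1. The flanking share difference of 9.12 percentage points kept its sign in each alternative, from 1.34 with equal lists to 24.4 with a flank of 50000 bp, and was 3.24 to 15.0 with 1 library left out: 3.24 without WT 1 and 15.0 without WT 2. With the replicate number as a block it was 11.5, from replicates 1 and 2 of each group; nothing in the labels pairs libraries of the same number. The depth of the libraries limits each absence, and was not known.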

Other observations

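Some further members at T cell genes were noticed after their values were seen and lie in no list. Tnfrsf9, which encodes the costimulatory receptor 4-1BB, had a pair of member regions: at the CpG-poor start site (CpG ratio 0.32) the −log10 q was 9.29 in WT 1, 2.31 in WT 2 and 2.94 in TPdh-/- 3, and at the CpG-rich one (1.00), a region that also holds Park7, it was 3.92, 3.12 and 4.13. At Cd44, the adhesion receptor that rises on activated and memory T cells, it was 5.63, 1.40 and 4.48. At the chemokine receptor gene Cxcr3, in a region 1958 bp from the start site, it was 1.36, 1.65 and 2.64. WT 2 had the lowest −log10 q of the 3 at Cd44, and at Cxcr3 both WT lists lay under TPdh-/- 3.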
